A study of Mus musculus with 6 samples.

Results

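The genes described here were 9 RNA-binding proteins that regulate alternative splicing in epithelial and mesenchymal cells, namely Esrp1, Esrp2, Rbfox2, Mbnl1, Mbnl2, Rbm47, Ptbp1, Srsf1 and Celf1. They were taken by gene symbol from a table of 24129 gene names, in which all 9 of 9 were found, and 9 of 9 had a mean of at least 10 normalized counts, the minimum for testing. The samples were 3 replicates of T1 cells (labelled 4T1A) and 3 replicates of T2 cells (labelled 4T1NA), both cultured tumor cells from a BALB/c mammary tumor that grew from injected 4T1GFP cells, a GFP-tagged line of the 4T1 mouse model of triple negative breast cancer. T1 cells had low GFP, adhered with an epithelial morphology and were aggressive in vivo. T2 cells had high GFP, were round and loosely adherent, and were the less aggressive population. According to the study's methods, GFP-positive tumor cells had overgrown a culture of sorted cancer-associated fibroblasts, and both populations were taken from it by GFP level, so neither is a fresh tumor isolate, and the labels do not say whether the replicates of a population came from separate tumors or sorts. Both populations were kept in DMEM/F-12 with serum, and T2 cells alone were passaged without trypsin. The parental 4T1GFP cells were not analysed here.

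Alternative splicing joins different sets of exons of 1 gene into different mRNAs, and proteins that bind the pre-mRNA near an exon decide whether that exon is kept. In epithelial cells ESRP1 and ESRP2, the epithelial splicing regulatory proteins, promote epithelial isoforms of genes such as Fgfr2, Cd44, Ctnnd1 and Enah, and they are commonly lost when cells pass through epithelial to mesenchymal transition. RBFOX2 and the muscleblind proteins MBNL1 and MBNL2 are known to favour many of the isoforms that mesenchymal cells make, while PTBP1, SRSF1 and CELF1 are expressed in nearly all cells. The counts analysed here were summed per gene, so they give the level of a regulator or of its target gene and hold nothing on which isoform was made.

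Of these regulators, the ESRP genes set T1 apart from T2. Esrp1 was read 2090 times in the T1 samples and 1 time in the T2 samples, and Esrp2 was 9.42-fold higher in T1. Rbfox2, Mbnl1 and Mbnl2 differed the other way and by far less, with T2 levels 1.41-fold, 1.24-fold and 1.28-fold those of T1. Rbm47, Ptbp1, Srsf1 and Celf1 did not pass the test.

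Esrp1 and Esrp2 are paralogs, and reads of 1 could be assigned to the other if their sequences were close. The 90-base stretches of their coding sequences that are most alike are shown for that reason. Only stretches without a gap inside a single exon of each gene were compared. The stretches shown were read from the GRCm38 (mm10) genome on the minus strand, with the bases that differ between the genes in capitals. The Esrp1 stretch lies at chr4:11360973-11361062 in exon 10 of 16 and the Esrp2 stretch at chr8:106133028-106133117 in exon 10 of 15 of the longest coding transcript.
Esrp1: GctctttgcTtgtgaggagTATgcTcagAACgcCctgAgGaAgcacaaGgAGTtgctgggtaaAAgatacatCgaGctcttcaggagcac
Esrp2: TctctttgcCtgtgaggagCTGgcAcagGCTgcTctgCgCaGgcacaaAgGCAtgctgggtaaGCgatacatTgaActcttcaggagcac
Of these 90 bases, 69 were identical. Over the whole coding sequence 67.4% of aligned bases were identical, and the longest run shared without a mismatch was 35 bases.

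The muscleblind pair is more alike, and its closest stretch within a single exon is shown for the same comparison. It lies on the plus strand at chr3:60595597-60595686 in exon 2 of 9 of Mbnl1 and at chr14:120379153-120379242 in exon 3 of 10 of Mbnl2, with the differing bases again in capitals.
Mbnl1: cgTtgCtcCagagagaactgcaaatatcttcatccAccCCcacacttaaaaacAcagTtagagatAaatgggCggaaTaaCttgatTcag
Mbnl2: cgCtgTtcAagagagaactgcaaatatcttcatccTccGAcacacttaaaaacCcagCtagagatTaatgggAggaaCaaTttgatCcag
Here 77 of 90 bases were identical, with 74.7% identity over the aligned coding sequence and a longest shared run of 26 bases. For Ptbp1 and its paralog Ptbp3 the identity was 73.5% and the longest shared run 20 bases.

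The ESRP proteins are known for promoting the epithelial exon of Fgfr2, called IIIb, in this gene for a receptor of fibroblast growth factors. The exon is printed because the gene count of Fgfr2, given further on, sums the reads of transcripts with and without it. It was read from the minus strand of the same genome at chr7:130199758-130199905 (148 bases, in 10 of 17 annotated coding transcripts), and no base is in capitals.
Fgfr2 IIIb: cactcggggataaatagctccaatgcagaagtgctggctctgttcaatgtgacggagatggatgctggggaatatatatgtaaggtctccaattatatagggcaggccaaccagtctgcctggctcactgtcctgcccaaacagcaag

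The 6 libraries held between 18133227 and 20839686 reads assigned to genes. A value below is a normalized count, which is the number of reads of a gene divided by 1 size factor per library. Differences were tested with limma on log2(normalized count + 1) over 11514 genes, and a gene was called at a Benjamini-Hochberg adjusted p under 0.01. T1 and T2 differed widely at this threshold, so that 49.5% of all tested genes were called, 25.1% as higher and 24.4% as lower in T1. Of the 9 regulators 2 were called higher and 3 lower, a share of 55.6% that lies near the background, so the number of calls says little about these genes as a group. The median log2 fold change was 0.07 for the regulators and -0.0055 for all tested genes. With the additional limit of an absolute log2 fold change above 2, 8.37% of genes were called, 4.17% as higher and 4.2% as lower in T1, and among the regulators 2 were higher (Esrp1 and Esrp2) and 0 lower. The values of the T1 and T2 samples did not overlap for 5 of the 9 regulators, against 68.1% of all tested genes.

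**Figure D1:**
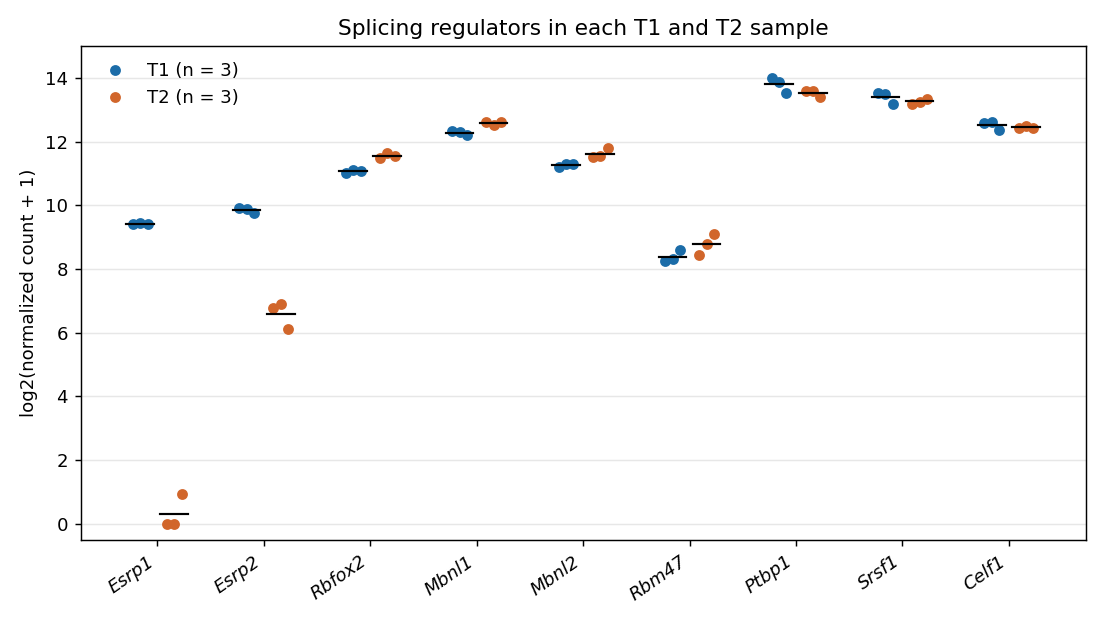
Each point is 1 sample, as log2(normalized count + 1), for the 9 splicing regulators in T1 (blue, n = 3) and T2 (orange, n = 3), and the bars are group means. The groups lie far apart for Esrp1 and Esrp2, are separated by a small gap for Rbfox2, Mbnl1 and Mbnl2, and overlap for the other 4.

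ESRP1 is an epithelial RNA-binding protein that activates or silences exons according to where it binds. Esrp1 had normalized counts of 674, 697 and 687 in the T1 replicates and of 0, 0 and 0.928 in the T2 replicates. The T1 samples had a coefficient of variation of 1.65%, below the 3.79% that read counting alone would give, so it does not measure reproducibility. T2 had a read in a single library. The 2090 reads in T1 against 1 in T2 gave a ratio of 2111 after scaling, with an exact 95% interval of 378 to 83422 that covers counting error only. With at most 0.928 normalized counts in any T2 sample, Esrp1 reached the minimum for testing through T1 alone. The fitted log2 fold change was 9.11 ± 0.31 (SE, n = 3 per group, adjusted p = 7.52e-09 by limma), larger in size than that of 99.86% of tested genes. Since this value depends on the constant added to the counts and on the model, it ranged from 7.03 to 10.94 over all settings tried, and Esrp1 was called higher in each of them. In each of the 2 T2 libraries without a read, a count of 0 allows up to 3 reads.

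Esrp2, its paralog with a similar set of targets, was lower in T2 and still present. It had 970.3, 934 and 866 normalized counts in T1 and 108, 118 and 68.7 in T2. The lowest T1 sample was far above the highest T2 sample, and T2 replicate 3 was the lowest of all. The means were 923 ± 53.1 in T1 and 98.04 ± 25.9 in T2 (SD, n = 3), a log2 fold change of 3.26 with a 95% interval of 2.84 to 3.68 (adjusted p = 2.8e-07 by limma). It held in each setting tried, from 3.02 to 3.41. Esrp2 shares 219 of its 4340 exonic bases with the end of Nfatc3 on the other strand. It also shares 119 with the non-coding transcript 1810019D21Rik, which was lower in T2 too, with 46.6, 51.1 and 26.4 normalized counts in T1 and 3.92, 2.05 and 5.57 in T2. Nfatc3 had between 3433 and 3914 normalized counts in T1 and between 2375 and 2675 in T2. As the libraries do not mark strand, the part of such reads in the Esrp2 counts was not tested. Esrp1, Mbnl2, Rbm47, Ptbp1 and Srsf1 likewise share between 86 and 437 exonic bases with an overlapping gene, so their counts carry the same uncertainty.

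Both ESRP genes together made 322 ± 11.6 normalized counts per kilobase of annotated exon in T1 and 22.6 ± 5.89 in T2 (SD, n = 3), a ratio of 14.2. Esrp1 made up 33.9 ± 1.49% of this sum in T1 and 0.307 ± 0.532% in T2. The T1 samples kept the genes at about the same proportion, with Esrp1 at 32.3%, 33.9% and 35.3%. Within a sample, the log2 ratio of Esrp1 to Esrp2 was -0.43 ± 0.096 in T1 and -6.28 ± 0.956 in T2, a difference of 5.85, so that Esrp1 was lower in T2 relative to its paralog. The exact permutation test, two-sided, gave p = 0.1, which is the smallest p that 3 against 3 samples allow. This difference moved with the constant added to the counts, from 3.82 with 5 to 6.65 with 0.5.

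RBFOX2 binds near exons and promotes or blocks their use according to the side it binds, and it takes part in splicing changes of mesenchymal cells. Rbfox2 had 2076, 2212 and 2145 normalized counts in T1 and 2850.4, 3209.8 and 3014 in T2. The groups did not overlap, with a gap between the highest T1 and the lowest T2 sample wider than the spread in either group. Its log2 fold change was -0.49 ± 0.076 (SE, n = 3 per group, adjusted p = 0.000252 by limma), and Rbfox2 was called lower in T1 in all 16 settings. Of all tested genes, 53.49% changed less than Rbfox2. Its paralogs Rbfox1 and Rbfox3, which are best known from neurons and muscle, had no read in any of the 6 samples.

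The muscleblind proteins drive the adult splicing pattern during differentiation. Mbnl1 had 5141, 4993 and 4719 normalized counts in T1 and 6239, 5907 and 6311 in T2. All T2 samples were above all T1 samples. Limma gave a log2 fold change of -0.31 with a 95% interval of -0.47 to -0.16 (adjusted p = 0.00281), and 36.9% of tested genes changed less.

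Mbnl2 had 2346, 2489 and 2526 normalized counts in T1 and 2942, 2972 and 3520.5 in T2. These groups did not overlap either, and T2 replicate 3 was the highest. Here the log2 fold change was -0.35 with a 95% interval of -0.55 to -0.16 (adjusted p = 0.00515 by limma). For both genes the call was close to the threshold. Without T1 replicate 2 the adjusted p was 0.0112 for Mbnl1 and 0.0155 for Mbnl2, and without T2 replicate 3 it was 0.0119 and 0.0187, which left Rbfox2 as the 1 regulator called lower in T1. Mbnl1 also lost its call without T2 replicate 1 (adjusted p = 0.0138) and Mbnl2 without T1 replicate 1 (adjusted p = 0.0237), and 2 regulators were then called lower.

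The third muscleblind gene, Mbnl3, differed in the opposite direction. It had 1851, 1619 and 1588 normalized counts in T1 and 1146, 1109 and 1187 in T2, and these values did not overlap. Its log2 fold change was 0.55 (adjusted p = 0.000318 by limma). Per kilobase of annotated exon, Mbnl3 was 29.1 ± 1.68% of the family sum in T1 and 18.2 ± 0.411% in T2 (SD, n = 3), while Mbnl1 was 40.0 ± 0.720% in T1 and 45.6 ± 1.496% in T2. The family sum itself was 662 ± 18.9 in T1 and 722 ± 39.6 in T2, a ratio of 0.917 between the T1 and T2 means. The log2 ratio of Mbnl1 to Mbnl2 differed by 0.04 between T1 and T2 (exact permutation p = 0.7), which is less than the SD of 0.12 within either group, and its sign changed when T1 replicate 1 or T2 replicate 3 was left out.

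**Figure D2:**
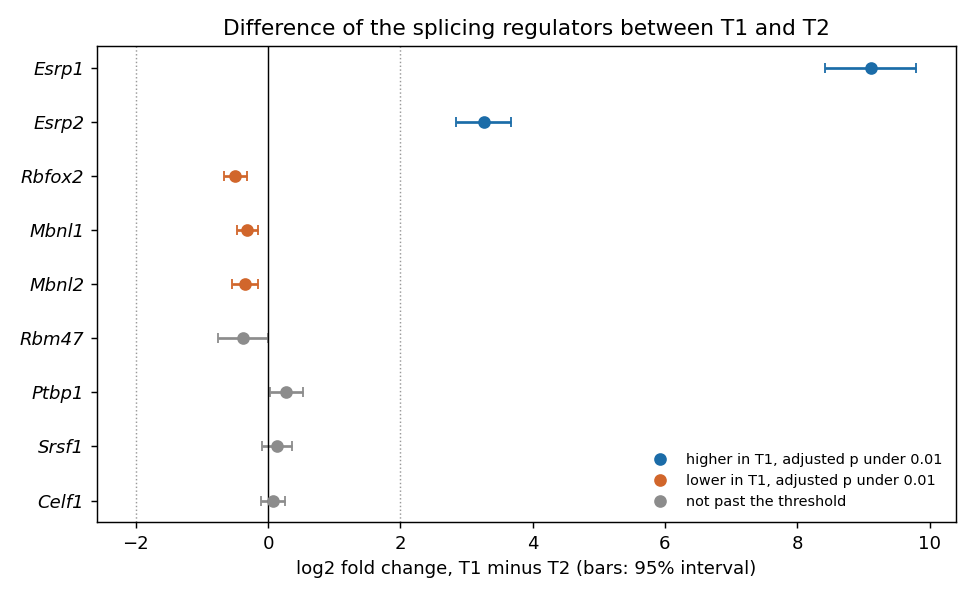
The log2 fold change (T1 minus T2) of each splicing regulator with its 95% interval from limma, and dotted lines at -2 and 2. Esrp1 at 9.11 and Esrp2 at 3.26 lie past the dotted line, and the other 7 lie between -0.49 and 0.27.

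RBM47 is an RNA-binding protein of epithelia that acts in splicing, mRNA stability and RNA editing. Rbm47 had 305, 319 and 386 normalized counts in T1 and 350, 436 and 542 in T2. T1 replicate 3 was above T2 replicate 1, so the groups overlapped. Its log2 fold change was -0.38 with a 95% interval of -0.75 to -0.0040, and it did not pass the threshold (adjusted p = 0.073 by limma). The T2 mean was thus 1.31-fold the T1 mean, while Esrp1 and Esrp2 were far lower in T2. Its relatives A1cf, the cofactor of the RNA-editing enzyme APOBEC1, and Rbm46 had no read.

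PTBP1 represses exons by binding pyrimidine-rich stretches and is the major member of its family outside neurons. Ptbp1 had 16186, 14913 and 11865 normalized counts in T1 and 12326, 12213 and 10772 in T2. T1 replicates 1 and 2 were above every T2 sample, and T1 replicate 3 lay within the T2 values. The log2 fold change was 0.27 with a 95% interval of 0.02 to 0.52 (adjusted p = 0.0554 by limma). Without T1 replicate 3 it was 0.40 and was called (adjusted p = 0.00222), so that 3 regulators were then higher in T1.

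The paralogs of Ptbp1 moved apart. Ptbp2, the form that neurons switch to, was lower in T1, with 1080 ± 130.2 normalized counts in T1 and 1632 ± 196 in T2 (SD, n = 3, log2 fold change -0.60, adjusted p = 0.00142 by limma). Ptbp3 was higher in T1, with 5161 ± 306 against 3821 ± 304 (log2 fold change 0.44, adjusted p = 0.00104 by limma). Per kilobase of annotated exon, Ptbp2 made up 3.08 ± 0.0561% of the family in T1 and 5.63 ± 0.840% in T2, and Ptbp1 made up 78.7 ± 2.03% and 78.2 ± 2.02%. The log2 ratio of Ptbp1 to Ptbp3 differed by -0.16 between the groups (exact permutation p = 0.4), which is within its SD of 0.20 in T1.

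SRSF1, an SR protein, promotes exon inclusion through purine-rich enhancers. Srsf1 had 11785, 11545 and 9177 normalized counts in T1 and 9261, 9715 and 10423 in T2. The T2 values lie within the T1 range. The log2 fold change was 0.14 with a 95% interval of -0.09 to 0.36 (adjusted p = 0.258 by limma).

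CELF1 binds GU-rich RNA, acts against the muscleblind proteins at many exons and shortens the life of mRNAs. Celf1 had 6131, 6224 and 5277 normalized counts in T1 and 5517, 5718 and 5463 in T2, again with all T2 values inside the T1 range. Its log2 fold change was 0.07 with a 95% interval of -0.10 to 0.25 (adjusted p = 0.439 by limma), and 9.354% of tested genes changed less. The intervals of Srsf1 and Celf1 both reach to either side of no change. That of Celf1 leaves room for a log2 difference of up to 0.25 higher or 0.10 lower in T1.

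The related genes Celf2 and Celf4 were lower in T1. Celf2 had 1553 ± 98.2 normalized counts in T1 and 2185 ± 279.8 in T2 (SD, n = 3, log2 fold change -0.49, adjusted p = 0.00182 by limma), and Celf4 had 701 ± 61.6 and 1040 ± 8.41 (log2 fold change -0.57, adjusted p = 0.000433). Among the CELF genes with enough reads, which are these and Celf1, Celf1 held 83.0 ± 0.956% of the sum per kilobase in T1 and 76.2 ± 1.28% in T2. Celf3, Celf5 and Celf6 had at most 10.2 normalized counts in any sample and were not tested. Of the 12 paralogs examined, 5 were tested and all 5 were called, 2 higher and 3 lower in T1, none with an absolute log2 fold change above 1. The share called among all tested genes was 49.5%. Without a filter on low values Ptbp2, Ptbp3 and Celf2 lost their calls (adjusted p = 0.0395, 0.0192 and 0.0352 by limma), which left 1 higher and 1 lower. Celf2 also lost its call without a variance trend (adjusted p = 0.0108) and Ptbp2 without T2 replicate 1 (adjusted p = 0.0101).

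**Figure D3:**
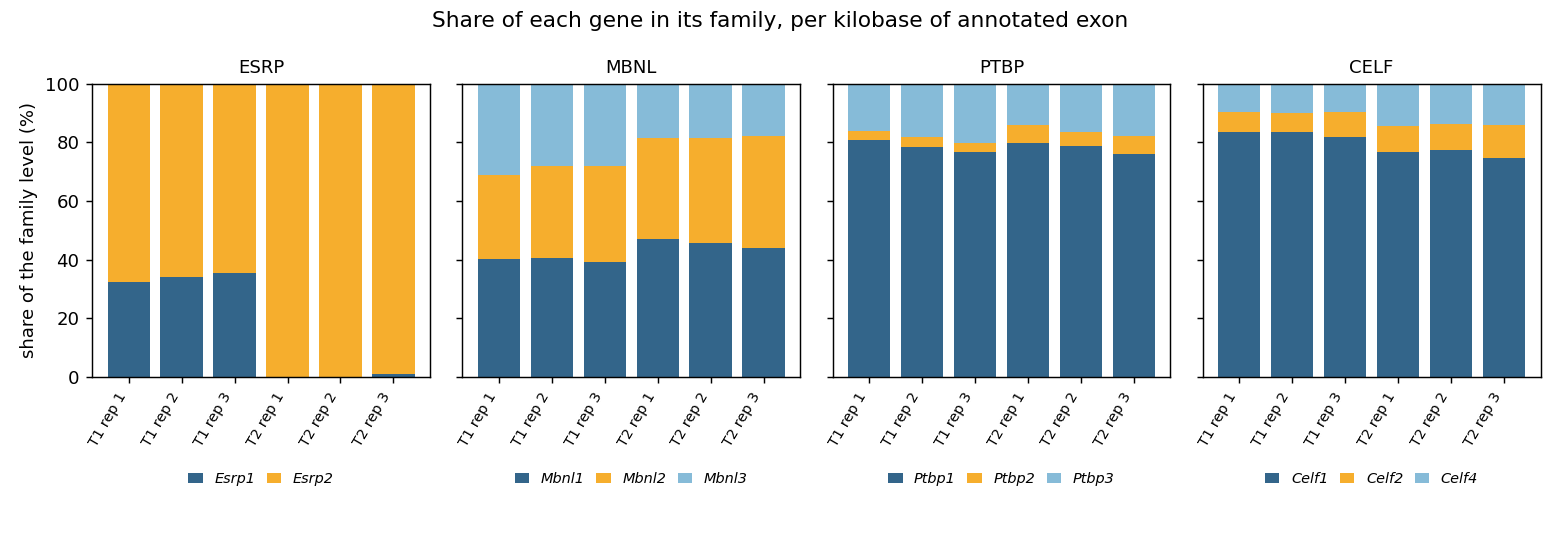
Stacked bars give, for each of the 6 samples, the share in percent of each gene in the summed level of its family per kilobase of annotated exon. Esrp1 makes up 33.9% in T1 and 0.307% in T2, Mbnl3 falls from 29.1% in T1 to 18.2% in T2, and the PTBP and CELF families stay dominated by Ptbp1 and Celf1.

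The order of the regulators within a group was compared per kilobase of annotated exon, since a longer gene yields more reads. In both groups Ptbp1 was highest (3021 ± 468 in T1 and 2483 ± 183 in T2, SD, n = 3), followed by Srsf1 and Celf1, and neighbours among these 3 did not overlap. In T1 Mbnl1 (265 ± 11.4) and Rbfox2 (263 ± 8.33) overlapped, as did Esrp2 (213 ± 12.2) and Mbnl2 (205 ± 7.93), and Esrp1 (109 ± 1.80) and Rbm47 (47.0 ± 6.10) closed the order. In T2 the last places were taken by Rbm47 (61.8 ± 13.4), Esrp2 (22.6 ± 5.97) and Esrp1 (0.0491 ± 0.0850), and no neighbours overlapped. The order was also taken with the length of the longest protein-coding transcript, a choice made after the data were seen. Ptbp1 and Srsf1 kept the first places and the same genes closed the order in both groups. Between them Mbnl1 rose to place 3 and Mbnl2 to place 5, and Celf1 fell to place 4 and Rbfox2 to place 6. In T1 Esrp2 fell to place 7, with means of 876 for Mbnl1, 539 for Mbnl2, 310 for Rbfox2 and 261 for Esrp2. The order of these genes thus depends on the length used. The family shares and sums above were taken with annotated exon length alone and depend on it as well. For Esrp1 the T1 mean was 178 with the longest coding transcript, beside the 261 of Esrp2. The annotated exons of Mbnl1 span 18717 bases and its longest coding transcript 5655.

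Other splicing factors were examined as lists, beside the 49.5% of all tested genes that were called. Of 11 tested SR proteins, 0 were called by limma, edgeR or DESeq2, although 4 had an unadjusted p under 0.05 in limma, and the list ran from -0.27 to 0.32 on the log2 scale with a median of 0.02. These proteins bind exonic enhancers and support splice site choice in all cells. Of 20 hnRNP proteins, which often act as silencers, limma called 3 higher in T1 and none lower, with a median of 0.06. The 3 were Hnrnph3 (0.81, adjusted p = 0.000463), Hnrnpc (0.48, adjusted p = 0.000232) and Hnrnpab (0.37, adjusted p = 0.00255). Hnrnpab lost its call without T1 replicate 1, T1 replicate 2 or T2 replicate 3 (adjusted p = 0.0145, 0.0124 and 0.0119). An unadjusted p under 0.05 was reached by 6 of the 20, and edgeR and DESeq2 each called 1 lower, Hnrnph2.

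Among 11 tested other regulators of tissue-restricted splicing, Elavl1, which stabilizes mRNAs, was called higher in T1 (0.34, adjusted p = 0.00658 by limma) and Tia1, a protein of stress granules that binds U-rich introns, lower (-0.70, adjusted p = 0.00138). The call of Tia1 was lost without a filter on low values (adjusted p = 0.0462). That of Elavl1 was lost there as well (adjusted p = 0.053), and also without a variance trend and on leaving out T1 replicate 1, T1 replicate 2 or any T2 replicate (adjusted p between 0.0192 and 0.0329), and over the other settings 0 to 1 genes of the list were higher and 0 to 3 lower. The median of this list was -0.05. The kinases that phosphorylate SR proteins were divided, with Srpk1 (0.49) and Clk3 (0.33) higher and Srpk2 (-0.71) and Clk1 (-0.58) lower of 5 tested. That is 80.0% called, against 49.5% of all tested genes. Clk1 and Clk3 were close to the threshold (adjusted p = 0.00859 and 0.00803 by limma), and the list lost up to 2 of its lower and 1 of its higher calls in other settings. Of 24 core components of the spliceosome, 41.7% were called, against 49.5% of all tested genes. In this list 9 were higher in T1 and 1 lower, and the median was 0.23. The largest difference was that of Snrpa1, the U2 snRNP protein A', with 3918 ± 183 normalized counts in T1 and 1769 ± 34.3 in T2 (SD, n = 3, log2 fold change 1.15, adjusted p = 4.82e-07 by limma), followed by Sf3a3 (0.66), Snrpd3 (0.62) and Prpf31 (0.57). The number of core components called higher was 4 without a filter on low values or without a variance trend and 5 without T1 replicate 1, and 11 with DESeq2.

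**Figure D4:**
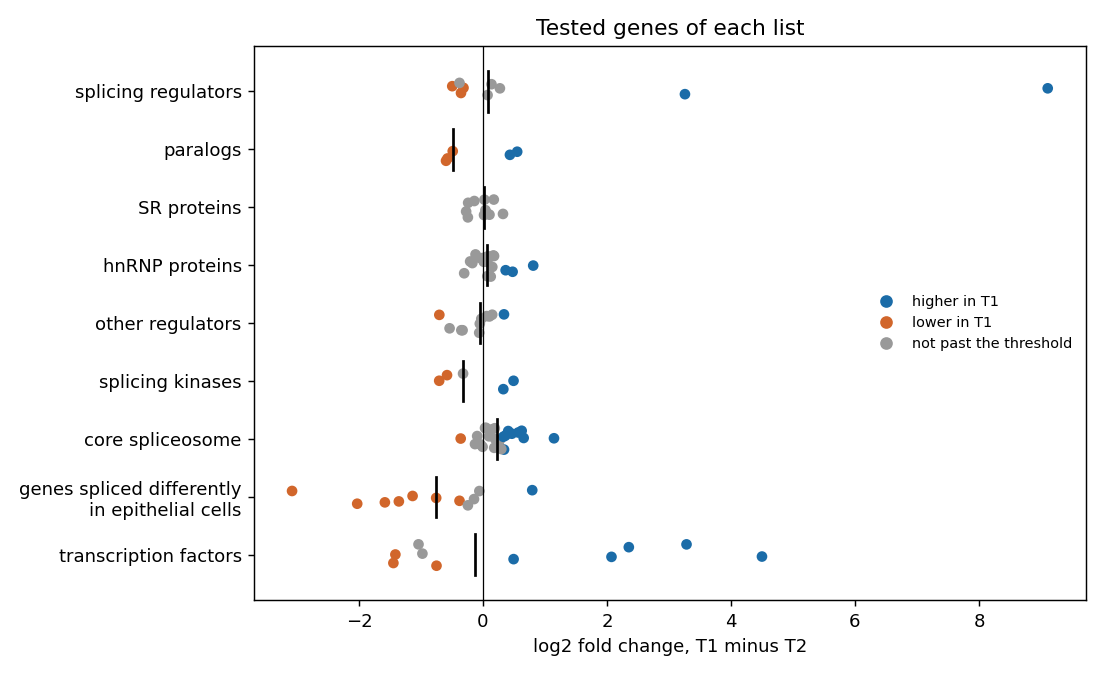
Each point is a tested gene of the named list at its log2 fold change (T1 minus T2), colored by whether it was called higher (blue) or lower (orange) in T1, and the black bars are list medians. SR proteins lie between -0.27 and 0.32, while Esrp1 and Esrp2 at the top and the transcription factors at the bottom reach above 2.

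Genes whose transcripts are spliced differently between epithelial and mesenchymal cells, many of them targets of the ESRP proteins or RBFOX2, were examined at gene level. Of 11 tested genes 7 were called lower and 1 higher in T1, a share of 72.7% against 49.5% of all tested genes. The median difference of the list was -0.75 on the log2 scale, and in the other settings 7 or 8 were lower and 1 higher. Fgfr2, whose IIIb exon is printed above, had 497, 476 and 433 normalized counts in T1 and 3786, 3952 and 4156 in T2. The T2 mean was 8.45-fold the T1 mean (log2 fold change -3.08 ± 0.087, SE, adjusted p = 2.4e-09 by limma). The T2 group thus had less ESRP mRNA and more Fgfr2 mRNA, and a link between these differences was not tested. The Fgfr2 difference was in the summed level of all forms of the gene.

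Tcf7l2, a transcription factor of the Wnt pathway, had 214 ± 28.3 normalized counts in T1 and 874 ± 94.9 in T2 (SD, n = 3, log2 fold change -2.03, adjusted p = 6.39e-07 by limma). Itga6, the laminin receptor subunit integrin alpha 6, had 6310 ± 473 in T1 and 18862 ± 815 in T2 (log2 fold change -1.58, adjusted p = 8.35e-08). Arhgef11, a guanine nucleotide exchange factor, was also lower in T1 (-1.36), as was Cd44, the hyaluronan receptor with many variant exons (-1.13), both without overlap between the groups. Exoc7, a subunit of the exocyst (-0.75, adjusted p = 0.000113 by limma), and Ctnnd1, the p120 catenin (-0.38, adjusted p = 0.000646), complete the genes called lower. Enah, an actin regulator with an epithelial exon, was higher in T1 with 1862 ± 169 against 1072 ± 76.9 normalized counts (log2 fold change 0.80, adjusted p = 4.82e-05). Slk, Rac1 and Numb did not pass the test, with log2 fold changes of -0.24, -0.14 and -0.06.

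**Figure D5:**
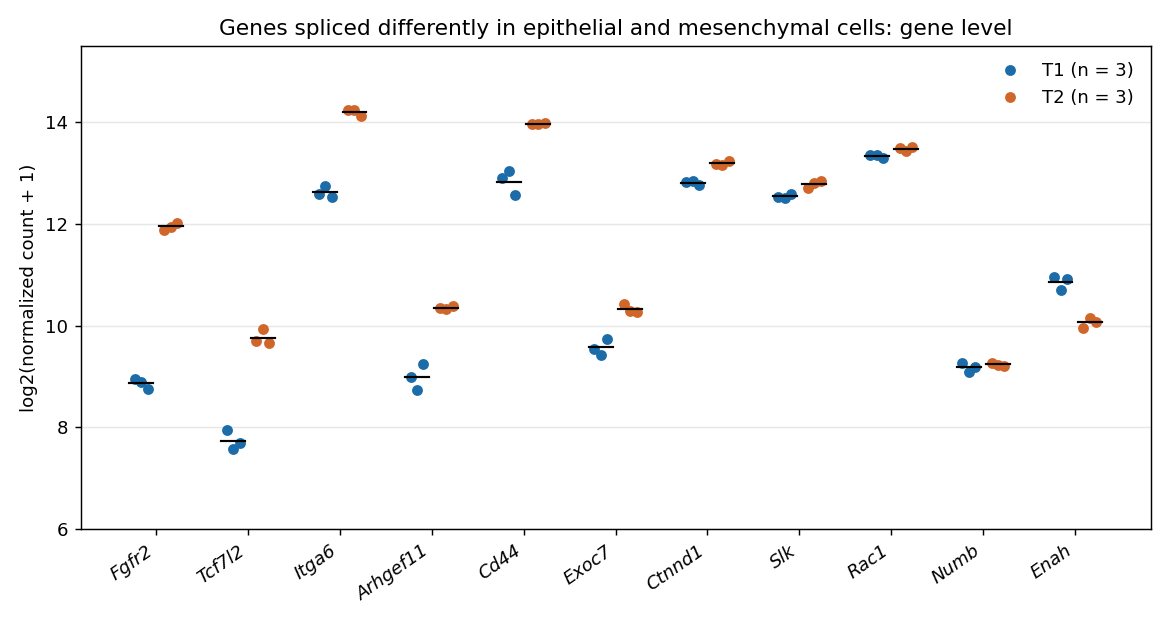
Each point is 1 sample, as log2(normalized count + 1), for 11 genes spliced differently in epithelial and mesenchymal cells, ordered by log2 fold change, with T1 in blue, T2 in orange and bars at the group means. Fgfr2 at the left is lowest in T1 relative to T2 (-3.08) and Enah at the right is highest (0.80), and the axis starts at 6.

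Transcription factors that hold or repress epithelial genes, among them known regulators of the ESRP genes, were called in 8 of 10 tested cases, 5 as higher and 3 as lower in T1. That is 80.0% called, against 49.5% of all tested genes. In the other settings 3 to 5 genes of this list were higher and 2 to 5 lower. Higher in T1 were the OVO-like repressors Ovol1 (log2 fold change 4.50) and Ovol2 (2.35), the grainyhead factors Grhl1 (3.28) and Grhl2 (0.49) and the epithelial ETS factor Elf3 (2.07). With at most 9.21 normalized counts in any T2 sample, Ovol1, Ovol2 and Grhl1 reached the minimum for testing through T1. The size of their fold changes depends on the model, with 4.64, 2.51 and 3.47 by edgeR. Lower in T1 were Twist1 (-1.44), Zeb2 (-1.41) and Klf5 (-0.75), of which ZEB2 and TWIST1 are drivers of epithelial to mesenchymal transition. Without a filter on low values Ovol2, Grhl2 and Klf5 lost their calls (adjusted p = 0.022, 0.0111 and 0.0664 by limma). Klf5 also lost its call without a variance trend (adjusted p = 0.0138). Zeb2 had 572, 708 and 789 normalized counts in T1 and 1724, 1895 and 1847 in T2. Zeb1, known as a repressor of Esrp1, was near its detection limit with 9.76 to 13.02 normalized counts in T1 and 1.02 to 2.78 in T2, too few for the test. Snai2 and Ehf had no read, and Snai1 and Klf4 did not pass the threshold (adjusted p = 0.0182 and 0.0991 by limma). The Snai1 values did not overlap between the groups. Snai1 was called lower in T1 by edgeR (adjusted p = 0.00989). By limma it was called with a replicate block (adjusted p = 0.00219) and without T2 replicate 3 (adjusted p = 0.00363). Klf4 was called lower with a replicate block (adjusted p = 0.00363 by limma).

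The label of T1 as the population with epithelial morphology was set against marker genes. For comparison, 25.1% of all tested genes were called higher and 24.4% lower in T1. Of 9 tested epithelial markers 6 were called higher in T1, most of all Krt14 (fitted log2 fold change 10.36), Dsp (10.31), Krt19 (10.01) and Cldn4 (9.84), each with fewer than 10 normalized counts in every T2 sample. The other 2 were Epcam with 3141 ± 314 normalized counts in T1 and 34.7 ± 3.49 in T2 (SD, n = 3) and Cdh1, E-cadherin, with 14748 ± 908 and 465 ± 16.2. Krt8, Krt18 and Ocln did not pass the test, and both keratins had at least 17357 normalized counts in every sample, so T2 was not without epithelial transcripts. Of 6 tested mesenchymal markers 4 were lower in T1, among them S100a4 (log2 fold change -3.08) and Vim at 33309 ± 2350 and 148391 ± 16074, and 1, Fn1, was higher, with 91862 ± 13942 and 12593 ± 3716. Among the untested mesenchymal markers, Zeb1 and Acta2 had few reads and were higher in T1 without overlap. Acta2 had 4.88 to 6.51 normalized counts in T1 and 0 to 3.07 in T2, and Cdh2 and Snai2 had no read. The 8 fibroblast markers summed to between 21.2 and 40.0 normalized counts in the T1 samples and between 0 and 1.86 in the T2 samples, with Col3a1, Lum, Pdgfrb and Thy1 at 0 in all. The 8 endothelial markers summed to at most 19.0 in T1 and 18.4 in T2, with Kdr and Emcn at 0, and the 10 leukocyte markers to between 61.4 and 95.6 in T1 and between 97.4 and 132 in T2, most of it Cd68, with Tyrobp, Cd3e and Adgre1 at 0. As the libraries are bulk, a smaller share of expressing cells and less mRNA in each cell cannot be told apart for any of these genes.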

How the data were processed

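RNA from 3 T1 and 3 T2 samples was sequenced by the authors as poly(A) libraries on an Illumina HiSeqX. Per the methods of the study and the submitters' processing notes, reads were trimmed with Trimmomatic, aligned to mm10 with TopHat2, counted per gene with HTSeq and normalized by the median of ratios of DESeq2. Versions, annotation and strand setting are not given in the sources used here. The deposited signal is therefore the reads of a gene over the size factor of its library. Multiplying back gave whole reads for 100% of values (within 0.01 read).

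Genes averaging 10 or more normalized counts were tested with limma 3.58.1 (R 4.3.3, trended variance, Benjamini-Hochberg) on log2(normalized count + 1), T1 minus T2, with no covariate, and called at an adjusted p under 0.01. The additional log2 limit of 2 follows the study. The edgeR 4.0.16 and DESeq2 1.42.0 tests on recovered reads, other pseudocounts (0.5 and 5), filters (none and 50), quantile normalization, no variance trend, a replicate block and leaving out each replicate were alternatives. Gene positions, exons and sequences came from the GENCODE annotation of GRCm38. The genes named were all 9 regulators, their paralogs and up to 4 called genes of largest change in each list. Further genes of the lists named in the text were chosen after their values were seen. The members and lists were chosen with earlier results of these data known. P-values measure only the spread between these samples, which may be technical. The list of genes spliced differently in epithelial and mesenchymal cells was analysed without 1 gene, which is not reported here.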

Additional observations from a re-analysis of the deposited data

How the results depend on the processing

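Of the 135 comparisons of a regulator with its value in another setting, 124 kept direction and side of the threshold, 10 lost the call (Mbnl1 and Mbnl2) and 1 gained it (Ptbp1 without T1 replicate 3), and no direction changed for a called regulator. Without a filter on low values 1795 genes were called higher and 1717 lower in T1 instead of 2888 and 2813, and with that setting or without a variance trend 1 regulator was called lower. Leaving out 1 replicate, between 1 and 3 regulators were called lower and between 2 and 3 higher. The log2 ratio of Esrp1 to Esrp2 differed by 6.6535 between T1 and T2 with a pseudocount of 0.5 and by 3.8246 with 5, since Esrp1 has almost no reads in T2. The difference of the log2 ratio of Mbnl1 to Mbnl2 was -0.0193 without T1 replicate 1 and -0.0249 without T2 replicate 3, and ranged up to 0.0963 when other replicates were left out; the cause was not tested. Deviations of samples with the same replicate number had weak positive correlations (0.0575, 0.1722 and 0.104), against -0.1524 to 0.0719 for different numbers. Every sample correlated best with its own number except T2 replicate 1. Whether the numbers mark pairs is not known, and the main test took none. With a replicate block, 2926 genes were called higher and 2854 lower, and 2 and 3 regulators. The levels of Esrp1 in T2 rest on 1 read and limit how precisely its fold change can be known.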
